A study of Mus musculus with 9 samples.

Results

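The genes described here are 8 erythroid genes and the iron exporter gene Slc40a1, which make 9 of the 51912 genes in the count table. They are the carbonic anhydrase genes Car1 and Car2, the transcription factor genes Klf1 and Gata1, the red cell membrane genes Slc4a1 and Kel, the adult globin genes Hbb-bs and Hba-a1, and Slc40a1. They were chosen by symbol from earlier results of the same counts, because their levels differed between libraries of one group, so their levels and fold changes are given as a description. Where a test ran over all genes, the number of the 9 that it called is printed beside the share of all genes called, and nothing is read from it. All 9 were found in the table.

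The libraries were made from total RNA of pre-cDCs, the precursors of conventional dendritic cells (cDCs), by bulk RNA-seq after removal of ribosomal RNA. BM pre-cDCs gave 3 WT and 3 DNGR-1 KO libraries, and spleen pre-cDCs gave 1 WT and 2 DNGR-1 KO libraries, numbered here as in their labels (WT BM 1 to 3, DNGR-1 KO BM 1 to 3, WT spleen 2, DNGR-1 KO spleen 1 and 2). All cells came from mixed chimeras, in which lethally irradiated BL/6 CD45.1/2 hosts had received equal numbers of BM cells of 2 kinds of donor, WT mice carrying CD45.1 on BL/6 and Clec9a Cre/Cre mice carrying CD45.2, the latter lacking DNGR-1, the receptor that Clec9a encodes. Each library held cells pooled from a pair of mice. They were sorted from cells negative for lineage markers that included Ter119, a marker of erythroid cells, and CD3, a marker of T cells. The WT and DNGR-1 KO cells of a tissue thus shared the irradiated hosts and differed in the congenic marker as well as in Clec9a. For WT, GEO's fields disagree on the congenic allele (CD45.1 or CD45.2), and that of the study's methods is given above.

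Red cell formation passes from progenitors that express Gata1, Klf1 and the carbonic anhydrases, through erythroblasts that build the membrane skeleton, the anion exchanger and large amounts of globin, to reticulocytes and red cells that have lost their nucleus but keep globin RNA for a time. Gata1 and Klf1 are the transcription factors that switch on this programme, and carbonic anhydrases convert carbon dioxide and water into bicarbonate, which the anion exchanger Slc4a1 (band 3) carries across the membrane. Slc40a1 encodes ferroportin, the known exporter of iron from mammalian cells, which is abundant in the red pulp macrophages of the spleen that recycle iron from old red cells and is also made by erythroid cells. cDC precursors are not known for expressing this programme.

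The libraries held 17103806 to 23722298 counts each, so 3 counts, the limit that a count of 0 allows, corresponded to 0.127 to 0.175 CPM, a count scaled to a common library size. Levels are given below as counts and as CPM normalised by the trimmed mean of M values (TMM) over the 9 libraries. The targeted gene Clec9a had 905, 1574 and 1766 counts in WT BM, 2459 in WT spleen, 1 in each DNGR-1 KO BM library and 0 in both DNGR-1 KO spleen libraries, which follows the genotype labels in all 9. The 12 genes of a pre-cDC list (Flt3, Csf1r, Irf8, Zbtb46 and others) were above 3 counts in every library. In BM, libraries of one genotype differed in their other markers. Relative to the mean of the WT BM libraries, the pre-cDC list had a median log2 ratio of -0.71 in WT BM 1, whose neutrophil granule list was at 1.38, while DNGR-1 KO BM 1 had -0.03 and 1.66. DNGR-1 KO BM 2 and 3 had 426 and 460 of 11843 genes more than 4-fold below the WT BM mean, against 35 in DNGR-1 KO BM 1. In spleen, T cell genes were high in all 3 libraries, with 1539 Cd3d counts in the WT library and 2576 and 10145 in the DNGR-1 KO libraries, against at most 9 in BM. The part of these libraries' other cells in the results below was not tested, and in bulk RNA fewer cells of a type and less RNA per cell cannot be told apart.

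The first group is the globins, whose sequences decide how they can be read. Mice carry near-identical copies of each adult globin gene. In the GENCODE M21 transcripts, the coding sequences of Hba-a1 and Hba-a2 differ at 1 of 429 bases (C381T), and those of Hbb-bs and Hbb-bt at 1 of 444 bases (C417T), written as the base in the first gene, its position counted from 1 at the A of the start codon, and the base in the second. The stretches around these bases, coding bases 351 to 410 of the alpha pair and 385 to 444 of the beta pair, are shown because they are the sole coding difference that could assign a read to one copy, and the capital marks it.
Hba-a1: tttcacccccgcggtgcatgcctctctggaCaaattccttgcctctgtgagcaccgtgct
Hba-a2: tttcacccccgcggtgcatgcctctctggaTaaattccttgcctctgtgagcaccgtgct
Hbb-bs: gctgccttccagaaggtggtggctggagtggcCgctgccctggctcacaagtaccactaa
Hbb-bt: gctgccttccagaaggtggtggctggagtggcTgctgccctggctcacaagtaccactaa
The differing base lies at position 32284343 of chromosome 11 in Hba-a1 and 32297160 in Hba-a2 (plus strand), and at 103826692 of chromosome 7 in Hbb-bs and 103812683 in Hbb-bt (minus strand), all in GRCm38. Of the 100-base windows of the coding sequences, 85.2% of those of Hba-a1 occur also in Hba-a2 and 91.9% of those of Hbb-bs occur also in Hbb-bt. The division of reads between the copies is therefore uncertain, and sums over a pair are given beside the single genes. Hbb-bs held 67.2 to 82.6% of the beta counts and Hba-a1 held 39.9 to 64.4% of the alpha counts in the 9 libraries.

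Of the 9 genes, 5 have an entry in the RefSeq promoter table for GRCm38.p6. Their sequences are shown because Klf1, Gata1 and Kel varied together between BM libraries while both globins did not follow them. Each run is the part of the 250 bases before the RefSeq transcription start that lies outside annotated exons, 5′ to 3′ on the gene's own strand. Capitals mark GATAA, the letters bound by GATA factors, and CACCC, the letters bound by Klf1 and related factors, both searched on both strands (TTATC and GGGTG on the other). No matches share a base.
Klf1, chr8:84901732-84901927, plus strand: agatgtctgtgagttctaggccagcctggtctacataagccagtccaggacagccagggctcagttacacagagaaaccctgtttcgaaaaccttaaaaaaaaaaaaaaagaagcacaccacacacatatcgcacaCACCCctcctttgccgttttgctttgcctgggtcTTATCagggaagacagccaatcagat
Gata1, chrX:7967911-7968160, minus strand: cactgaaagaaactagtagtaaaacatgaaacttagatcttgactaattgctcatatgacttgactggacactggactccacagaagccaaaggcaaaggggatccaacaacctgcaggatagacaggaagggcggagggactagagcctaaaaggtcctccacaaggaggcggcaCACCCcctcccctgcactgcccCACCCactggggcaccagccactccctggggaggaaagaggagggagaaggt
Kel, chr6:41704340-41704575, minus strand: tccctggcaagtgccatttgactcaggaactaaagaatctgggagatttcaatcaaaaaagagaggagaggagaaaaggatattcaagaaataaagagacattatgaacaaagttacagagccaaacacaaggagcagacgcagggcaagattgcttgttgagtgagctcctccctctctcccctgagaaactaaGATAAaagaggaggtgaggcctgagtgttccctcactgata
Hba-a1, chr11:32283422-32283510, plus strand: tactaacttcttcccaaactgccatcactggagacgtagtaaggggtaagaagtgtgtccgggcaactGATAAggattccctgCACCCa
Hbb-bs, chr7:103828097-103828178, minus strand: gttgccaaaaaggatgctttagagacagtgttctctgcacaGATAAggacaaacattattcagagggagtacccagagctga
The Gata1 run lies inside the annotated gene, in an intron of a longer transcript, and the other 4 lie before the annotated gene. Over the full 250 bases, GATAA occurred in Klf1 (at base 80 before the start), Kel (55 and 18), Hba-a1 (182) and Hbb-bs (209), and was not among the letters of the Gata1 window. CACCC occurred in all 5, at base 114 in Klf1, at 74 and 52 in Gata1, at 5 in Kel, at 167 and 60 in Hba-a1 and at 90 in Hbb-bs. Among 27025 promoters of the same length, 23.0% held GATAA, 51.3% held CACCC and 10.03% held both. A match is a description of the letters and not a site. Car1, Car2, Slc4a1 and Slc40a1 have no entry in the table.

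**Figure D1:**
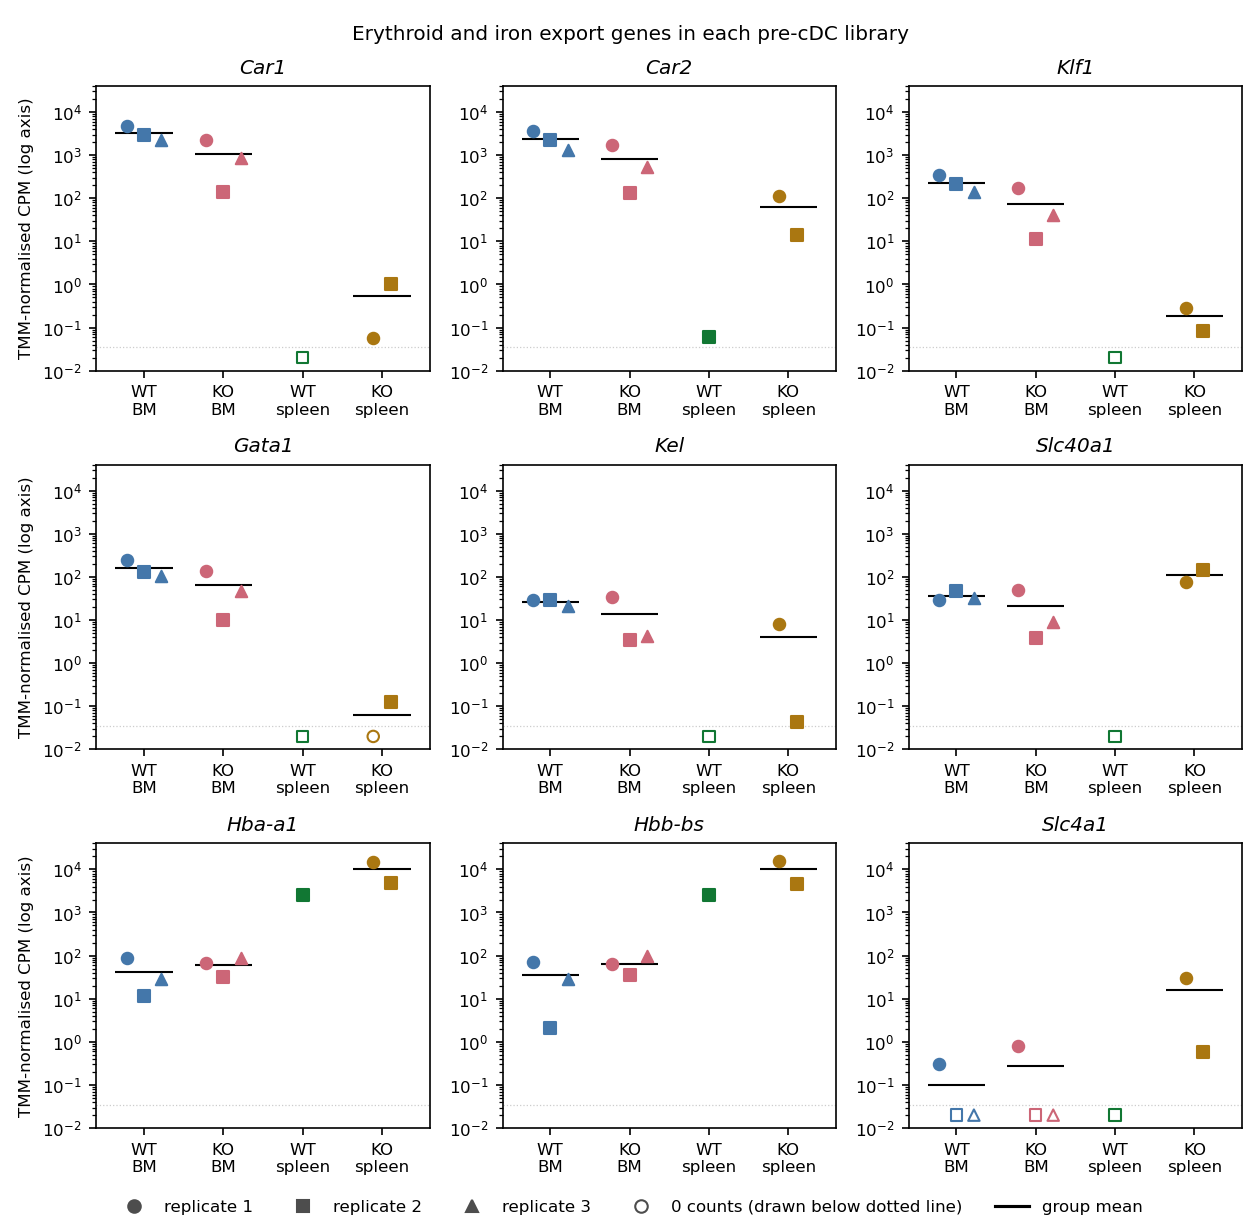
Level of each of the 9 genes in every library, as TMM-normalised CPM on a log axis, by group (WT BM, DNGR-1 KO BM, WT spleen, DNGR-1 KO spleen). Circles, squares and triangles are replicates 1, 2 and 3, bars are group means, and open symbols below the dotted line are libraries with 0 counts. Car1 spans 136 to 2194 CPM among the 3 DNGR-1 KO BM libraries, and the globins are at 2503 CPM or more in all 3 spleen libraries and at 95.4 CPM or less in all 6 BM libraries.

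Car1 (ENSMUSG00000027556, chr3:14766216-14808368, minus strand) encodes a cytosolic carbonic anhydrase of red cells. Its counts were 80481, 55052 and 44491 in WT BM 1, 2 and 3 and 49007, 2782 and 17298 in DNGR-1 KO BM 1, 2 and 3. In spleen they were 0 in the WT library and 1 and 24 in DNGR-1 KO spleen 1 and 2. All WT BM libraries were above all DNGR-1 KO BM libraries, and every BM library was above every spleen library. WT BM thus had a mean of 3315 ± 1337 CPM (SD, n = 3), DNGR-1 KO BM had 1066 ± 1043 CPM (SD, n = 3), and the margin between the lowest WT library (2264 CPM) and the highest DNGR-1 KO library (2194 CPM) was narrow. Ranked by count, Car1 was the 8th, 14th and 21st gene of WT BM 1, 2 and 3, the 22nd of DNGR-1 KO BM 1, the 163rd of DNGR-1 KO BM 3 and the 1557th of DNGR-1 KO BM 2.

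Car2 (ENSMUSG00000027562, chr3:14886273-14900770, plus strand) encodes the fast cytosolic carbonic anhydrase, which is made by red cells and by several other cell types, osteoclasts among them. It had 61381, 43139 and 25594 counts in WT BM and 38243, 2665 and 10607 in DNGR-1 KO BM. The genotypes overlapped, because DNGR-1 KO BM 1 lay between WT BM 2 and WT BM 3 in CPM (1712 against 2242 and 1302). The group means were 2407 ± 1195 and 791 ± 822 CPM (SD, n = 3 each). In spleen Car2 parted from Car1, with 1 count in the WT library and 2004 and 324 in DNGR-1 KO spleen 1 and 2. At 113 CPM, DNGR-1 KO spleen 1 came close to DNGR-1 KO BM 2 at 130 CPM, a ratio of 1.15 (95% counting interval 1.09 to 1.22). The ratio of Car1 to Car2 counts was 1.04 to 1.74 in the 6 BM libraries, whereas DNGR-1 KO spleen 1 and 2 had 0.000499 and 0.0741. Counting intervals here and below are exact and cover counting error only.

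Klf1 (ENSMUSG00000054191, chr8:84901928-84905291, plus strand), the erythroid Krüppel-like factor, had 5625, 4153 and 2722 counts in WT BM, 3835, 233 and 833 in DNGR-1 KO BM, 0 in WT spleen and 5 and 2 in DNGR-1 KO spleen. Gata1 (ENSMUSG00000031162, chrX:7959260-7978071, minus strand), which also serves megakaryocytes, mast cells and eosinophils, had 4171, 2541 and 2083 counts in WT BM, 3048, 207 and 948 in DNGR-1 KO BM, 0 in WT spleen and 0 and 3 in DNGR-1 KO spleen. For both, DNGR-1 KO BM 1 lay within the WT BM range and DNGR-1 KO BM 2 and 3 lay below it, and all spleen libraries were near or at 0. Klf1 averaged 230.4 ± 99.9 CPM in WT BM and 75.0 ± 85.2 CPM in DNGR-1 KO BM, and Gata1 averaged 163 ± 76.6 and 64.7 ± 64.9 CPM (SD, n = 3 each). Klf1 in the lowest BM library exceeded the highest spleen library 40.4-fold (95% counting interval 17.1 to 126), and Gata1, with 3 counts in that library, did so 79.3-fold (26.8 to 388), or 56.5-fold with the spleen libraries at 0 held at 3 counts.

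Kel (ENSMUSG00000029866, chr6:41686330-41704339, minus strand) encodes the Kell blood group glycoprotein of the red cell membrane. It had 495, 560 and 426 counts in WT BM, 757, 70 and 87 in DNGR-1 KO BM, 0 in WT spleen, and 146 and 1 in DNGR-1 KO spleen 1 and 2. DNGR-1 KO BM 1 was the highest of all libraries at 33.9 CPM, DNGR-1 KO BM 2 and 3 were low at 3.42 and 4.37 CPM, and DNGR-1 KO spleen 1 lay above these 2 at 8.21 CPM. The group means were 26.8 ± 4.45 CPM in WT BM and 13.9 ± 17.3 CPM in DNGR-1 KO BM (SD, n = 3 each).

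Slc4a1 (ENSMUSG00000006574, chr11:102348824-102366203, minus strand), the anion exchanger of later erythroblasts, was close to absent in BM, with 5, 0 and 0 counts in WT BM and 18, 0 and 0 in DNGR-1 KO BM. WT spleen had 0 counts, DNGR-1 KO spleen 1 had 547 and DNGR-1 KO spleen 2 had 14. The single library with a sizeable level was DNGR-1 KO spleen 1 at 30.8 CPM, against 0.594 CPM in DNGR-1 KO spleen 2 and at most 0.806 CPM in BM. A library at 0 allowed at most 3 counts, or 0.175 CPM of the total in the shallowest library.

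Slc40a1 (ENSMUSG00000025993, chr1:45908068-45926523, minus strand) had 490, 915 and 630 counts in WT BM, 1126, 80 and 183 in DNGR-1 KO BM, 0 in WT spleen, and 1361 and 3329 in DNGR-1 KO spleen 1 and 2. In BM its low libraries were those of Car1, Car2, Klf1, Gata1 and Kel: DNGR-1 KO BM 1 was highest at 50.4 CPM, and DNGR-1 KO BM 2 and 3 were at 3.90 and 9.18 CPM, below the WT BM range of 29.3 to 47.6 CPM. In spleen it was highest where Kel and Slc4a1 were not, at 141 CPM in DNGR-1 KO spleen 2 and 76.5 CPM in DNGR-1 KO spleen 1. Its mean was 36.3 ± 9.83 CPM over WT BM and 21.2 ± 25.5 CPM over DNGR-1 KO BM (SD, n = 3 each).

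Hbb-bs (ENSMUSG00000052305, chr7:103826534-103828096, minus strand), an adult beta globin gene, had 1212, 41 and 575 counts in WT BM and 1400, 745 and 1901 in DNGR-1 KO BM. Hba-a1 (ENSMUSG00000069919, chr11:32283511-32284465, plus strand), an adult alpha globin gene, had 1448, 226 and 578 counts in WT BM and 1484, 652 and 1727 in DNGR-1 KO BM. In spleen Hbb-bs had 42778 counts in the WT library, 271458 in DNGR-1 KO 1 and 109562 in DNGR-1 KO 2, and Hba-a1 had 41971, 267608 and 115697. The genotypes overlapped in BM, the tissues did not, and the lowest BM library was WT BM 2 for both genes. For Hbb-bs the mean was 34.7 ± 35.5 CPM over WT BM and 64.8 ± 29.6 CPM over DNGR-1 KO BM, and for Hba-a1 they were 42.6 ± 39.2 and 61.6 ± 27.7 CPM (SD, n = 3 each).

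Levels of different genes were compared per kilobase of annotated exon. In WT BM the order of the mean CPM per kilobase was Car1 (2656), Car2 (994), Klf1 (151), Gata1 (66.7), Hba-a1 (52.5), Hbb-bs (45.12), Kel (9.67), Slc40a1 (4.04) and Slc4a1 (0.0204). The ranges over the 3 libraries overlapped for each pair of neighbours from Klf1 down to Kel, and did not overlap between Car1 and Car2, Car2 and Klf1, Kel and Slc40a1, or Slc40a1 and Slc4a1. In WT spleen the order was Hbb-bs (3321) and Hba-a1 (3082), then Car2 (0.0246, a single count), with the other 6 genes at 0. In DNGR-1 KO spleen the mean CPM per kilobase was 12965 for Hbb-bs, 12289 for Hba-a1, 26.1 for Car2, 12.1 for Slc40a1, 3.20 for Slc4a1 and 1.49 for Kel, and under 1 for Car1, Gata1 and Klf1. The carbonic anhydrases thus led the 9 genes in BM, and the globins led them in spleen.

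Within a group, the spread of a gene was taken as its highest over its lowest library in TMM CPM, with counts under 3 raised to 3. Among the 3 DNGR-1 KO BM libraries the spread was 16.2-fold for Car1, 15.1-fold for Klf1, 13.5-fold for Gata1, 13.2-fold for Car2, 12.9-fold for Slc40a1 and 9.92-fold for Kel. Slc4a1 spread at least 5.50-fold, with 2 libraries at 0. DNGR-1 KO BM 2 was lowest for all 9 genes, tied at 0 counts with DNGR-1 KO BM 3 for Slc4a1. DNGR-1 KO BM 1 was highest for 7, and DNGR-1 KO BM 3 for the 2 globins, whose spreads were 2.62-fold (Hbb-bs) and 2.72-fold (Hba-a1). In all, 7 of the 9 genes spread at least 4-fold in this group, where 15.2% of the 14187 genes that reached 10 counts in one of its libraries did. Leaving out DNGR-1 KO BM 1 left 3 of them past 4-fold, and leaving out DNGR-1 KO BM 2 left 4. The share of all genes with a library left out is not given, and the 15.2% does not apply there.

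In WT BM the globins spread furthest. Hbb-bs spread 34.1-fold and Hba-a1 7.38-fold, both lowest in WT BM 2, while the other 6 genes that reached 10 counts spread 1.37-fold (Kel) to 2.82-fold (Car2). So 2 of 8 genes passed 4-fold, where 13.5% of 14182 genes did, and 0 passed without WT BM 2. Without WT BM 1, 1 gene passed, and the share of all genes with a library left out is not given. The median spread over all genes was 1.78-fold in WT BM, 1.64-fold in DNGR-1 KO BM and 1.90-fold in DNGR-1 KO spleen. Because the genes were chosen for such differences, nothing is read from these counts.

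**Figure D2:**
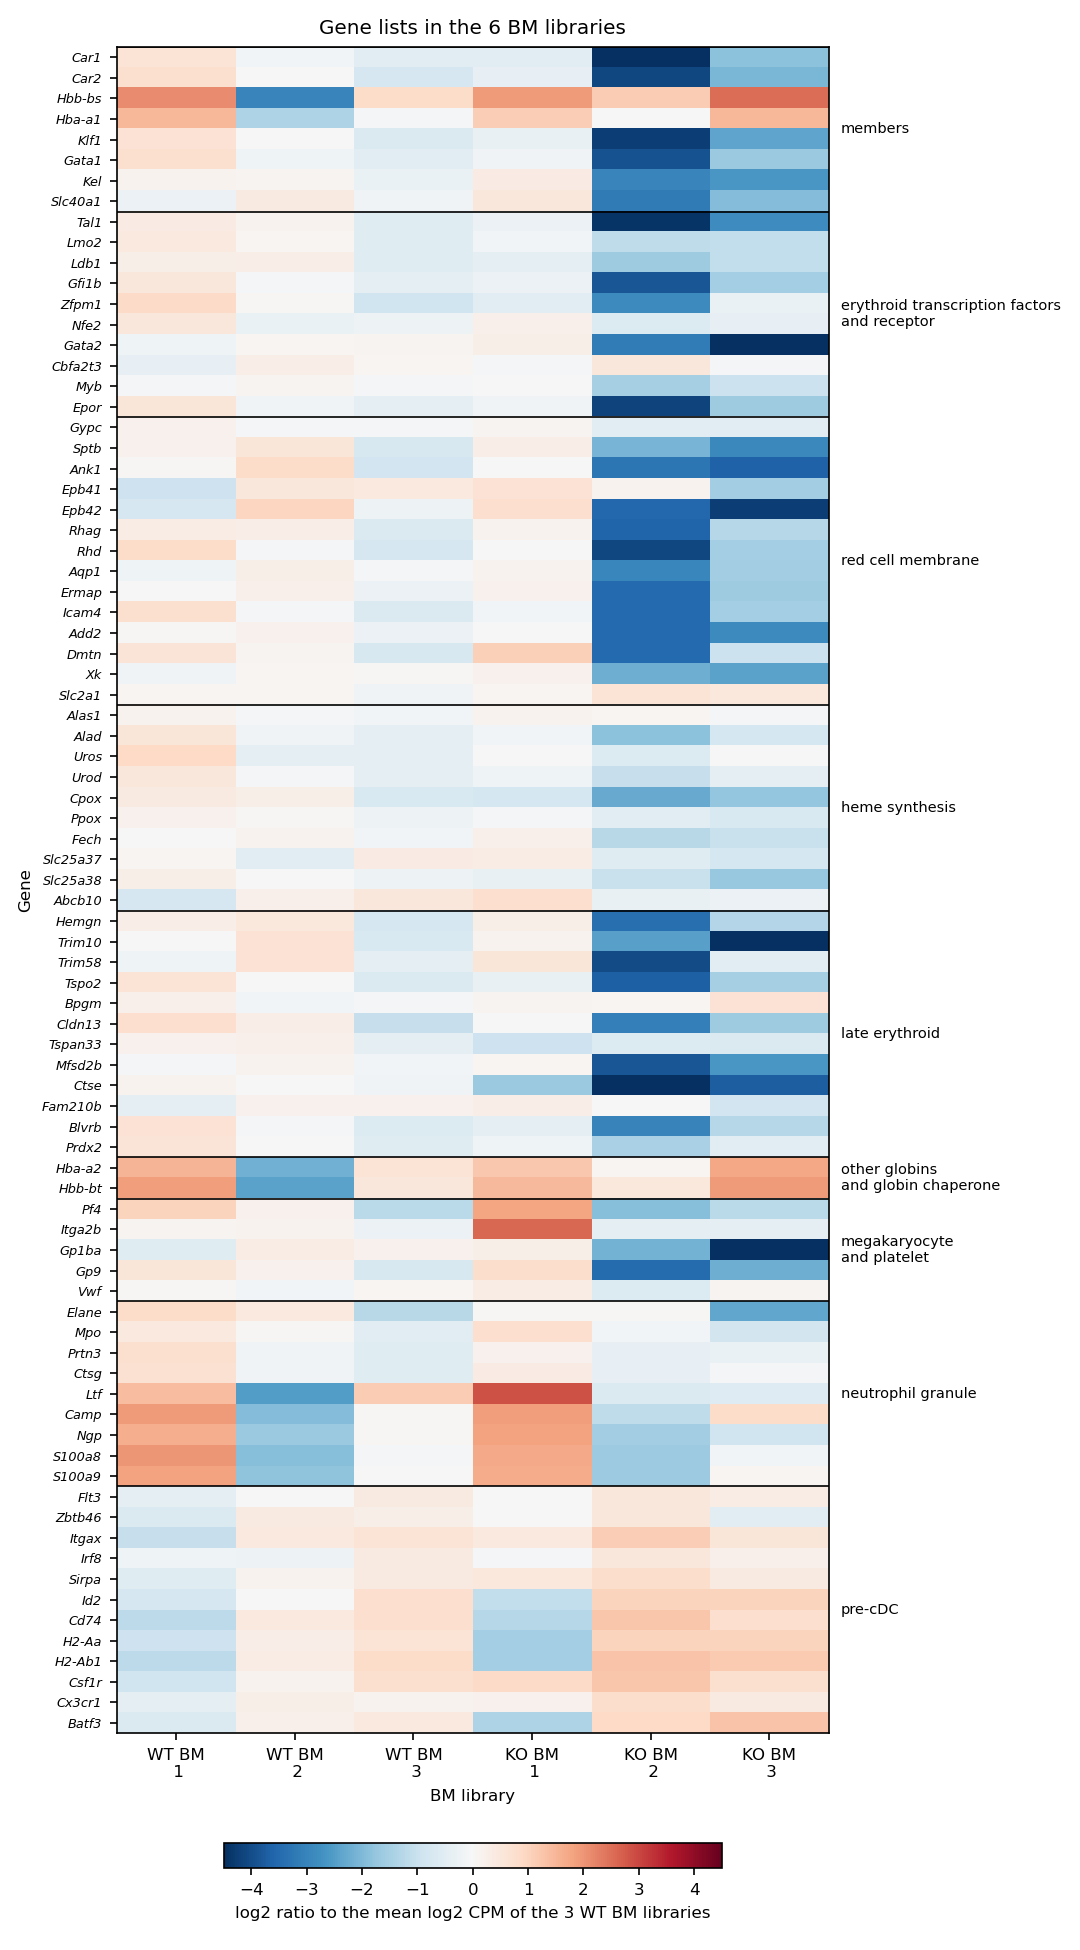
Log2 ratio of each gene to the mean of the WT BM libraries in the 6 BM libraries, in colour from -4.5 (lower) to 4.5 (higher), for the members and for genes of 8 lists. DNGR-1 KO BM 2 shows ratios of -4.54 for Car1 and 1.14 for Hbb-bs, and the globins are lowest in WT BM 2, with -2.96 for Hbb-bs.

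Relative to the mean of the WT BM libraries, the log2 ratios in DNGR-1 KO BM 2 were -4.54 for Car1, -4.25 for Klf1, -4.08 for Car2, -3.91 for Gata1, -3.18 for Slc40a1 and -2.96 for Kel. In DNGR-1 KO BM 3 these 6 genes lay between -2.60 (Kel) and -1.67 (Gata1), and in DNGR-1 KO BM 1 between -0.52 (Car1) and 0.51 (Slc40a1). All 6 were below every WT BM library in both DNGR-1 KO BM 2 and 3, whereas in DNGR-1 KO BM 1 Car1 alone was. The globins did not follow, with Hbb-bs at 1.92, 1.14 and 2.53 and Hba-a1 at 1.10, 0.04 and 1.48 in DNGR-1 KO BM 1, 2 and 3. In WT BM the lowest library was WT BM 3 for Car1, Car2, Klf1 and Gata1 and WT BM 2 for the globins. In DNGR-1 KO BM, library 2 was lowest for both kinds, but library 3 was the highest for the globins and library 1 for the others. The median over all 11843 genes that reached 10 counts in every WT BM library was within 0.02 of 0 in each library.

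The sum of Car1, Car2, Klf1 and Gata1 made 0.869%, 0.587% and 0.400% of the counts of WT BM 1, 2 and 3, and 0.450%, 0.0286% and 0.142% of those of DNGR-1 KO BM 1, 2 and 3. The sum of the 4 adult globin genes made 0.0253%, 0.00231% and 0.0116% of WT BM and 0.0226%, 0.0106% and 0.0287% of DNGR-1 KO BM. In spleen the early sum was 5.85e-06% (1 count) of the WT library and 0.0104% and 0.00149% of the DNGR-1 KO libraries, and the globins made 0.850%, 4.66% and 1.59% of the same libraries. Early genes exceeded globins in all 6 BM libraries, by 34.4, 255 and 34.4 times in WT BM and by 19.9, 2.70 and 4.96 times in DNGR-1 KO BM, and globins exceeded early genes in all 3 spleen libraries. The ranges of neither sum overlapped between the tissues.

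**Figure D3:**
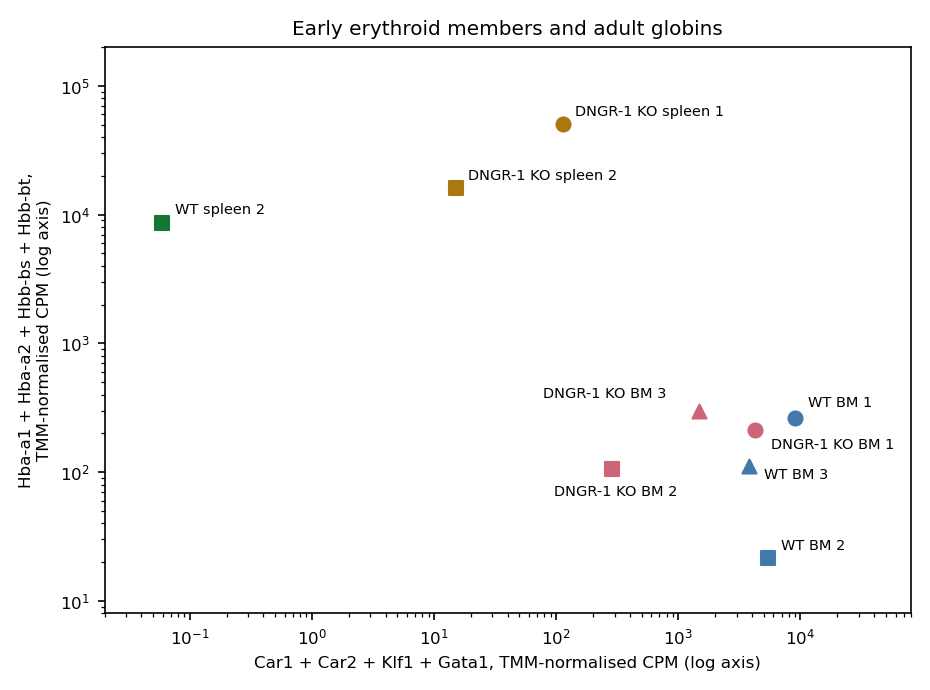
Summed level of Car1, Car2, Klf1 and Gata1 (horizontal) against that of the 4 adult globin genes (vertical) in each of the 9 libraries, both in TMM-normalised CPM on log axes; each labelled point is 1 library. The 6 BM libraries lie at the lower right and the 3 spleen libraries at the upper left, and DNGR-1 KO BM 2 has the lowest early sum of the BM libraries while WT BM 2 has the lowest globin sum.

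Some proportions within these sums were steadier than their levels. Car1 over Car2 was not, at 1.04 to 1.74 in BM but 0.000499 and 0.0741 in DNGR-1 KO spleen 1 and 2. Alpha over beta globin counts was 1.42 to 1.99 in 8 libraries and 5.75 in WT BM 2, which had only 61 beta counts. Klf1 over Gata1 was 0.879 to 1.63 in the 6 BM libraries. Alas2, the erythroid enzyme that starts heme synthesis and whose RNA also persists in late cells, had 1199 counts in WT spleen and 9181 and 3665 in DNGR-1 KO spleen, or 0.824%, 1.02% and 0.970% of the adult globin counts. In BM it had 0 to 58 counts. The share was 0.200 to 1.93% in the 5 BM libraries where it was detected, and WT BM 2, which had the fewest globin counts, had 0 Alas2 counts.

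Over the 6 BM libraries, with the genotype means removed from the log2 CPM, Pearson's r was 0.995 between Car1 and Gata1, 0.982 between Car1 and Car2, 0.976 between Car1 and Klf1, 0.952 between Slc40a1 and Kel and 0.908 between Slc40a1 and Klf1. The globins had an r of 0.931 with each other, and of 0.292 (Hbb-bs) and 0.535 (Hba-a1) with Car1. These values describe 6 libraries of one sort strategy and similar depth, in which DNGR-1 KO BM 1 and 2 were the ends for the early genes. By the same measure, the 5 genes outside the 9 nearest to Car1 were Gfi1b (0.999), Epor (0.999), Oxnad1 (0.998), Rab4a (0.998) and Slc38a5 (0.998), of which Gfi1b is a repressor and Epor the erythropoietin receptor of erythroid progenitors. Nearest to Car2 were Orc5, Zg16, Sqor, Icam4 and Nmnat3 (r of 0.998 to 0.9996), and nearest to Slc40a1 were Paqr9, Ppat, Myb, Dync2li1 and Cpa3 (0.994 to 0.997). Over all 9 libraries, which fall into the 2 tissues, no r is given. The genes ranked nearest there were Ces2g, Sphk1, Rhd, Ermap and Hemgn for Car1, C1qtnf12, Bsn, Mtfp1, Nme6 and Poldip2 for Car2, and Abcb9, Snap47, Ubash3a, Neu3 and Slc14a1 for Slc40a1.

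The BM genotype comparison asks how DNGR-1 KO pre-cDCs differ from WT in the tissue where they arise. In edgeR's fit over the 6 BM libraries, the log2 fold changes (DNGR-1 KO minus WT, with their SE) were -1.64 (0.74) for Car1, -1.62 (0.76) for Klf1, -1.61 (0.73) for Car2, -1.33 (0.72) for Gata1, -0.95 (0.73) for Kel, -0.78 (0.73) for Slc40a1, 0.53 (0.62) for Hba-a1 and 0.90 (0.85) for Hbb-bs. Slc4a1 had too few counts to be fitted. The quasi-likelihood test called 0 of the 8 genes fitted, with 0 at an unadjusted p under 0.05, where it called 0.0307% of 13016 genes (4 genes, with 498 at an unadjusted p under 0.05). DESeq2 and limma-voom also called 0 of the 8, with 0 and 6 at an unadjusted p under 0.05. Over all 13016 genes they had 636 and 744 at that level. Libraries of the 2 genotypes did not overlap for 1 of the 8, Car1, where 9.53% of genes did not overlap. Without DNGR-1 KO BM 1 the log2 fold change was -2.73 for Car1, -3.12 for Klf1, -2.47 for Slc40a1 and -2.78 for Kel. Without DNGR-1 KO BM 2 and 3, a setting chosen after the data had been seen, it was -0.59, -0.42, 0.47 and 0.34. For Hbb-bs and Hba-a1 it was 2.05 and 1.59 without WT BM 1, and 0.35 and 0.09 without WT BM 2.

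The other genes of the pathway are given by list. In each of the 14 lists compared (erythroid transcription factors and receptor, red cell membrane, heme synthesis, other globins, late erythroid, other carbonic anhydrases, iron, and 7 lists of cell type markers), 0 genes passed in BM by edgeR, with 0 to 2 genes of a list at an unadjusted p under 0.05, and the T and B cell list had none to test. Over the 133 list genes tested, DESeq2 and limma-voom called 0 as well. At an unadjusted p under 0.05 were 9, 18 and 31 by edgeR, DESeq2 and limma-voom, against 498, 636 and 744 of all 13016 genes. The median log2 fold change was -1.06 for the late erythroid list, -1.03 for the erythroid transcription factors and receptor, -0.97 for the red cell membrane list and -0.47 for heme synthesis, against -0.00447 over all genes tested. By library, the lists ranged widely. In DNGR-1 KO BM 2 the median log2 ratio to the WT BM mean was -3.47 for 16 red cell membrane genes, -3.05 for 12 late erythroid genes, -2.22 for 10 erythroid transcription factors and receptor and -1.02 for 11 heme synthesis genes, against 0.02 for all genes. In DNGR-1 KO BM 3 the same medians were -1.58, -1.30, -1.10 and -0.79. The pre-cDC list stood at 0.94 and 0.64 in these libraries, and the neutrophil granule list at -0.64 and -0.31. The megakaryocyte list, whose cells also use Gata1, stood at -1.61 and -0.88, and at 1.29 in DNGR-1 KO BM 1.

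Within DNGR-1 KO BM, 14 of 17 red cell membrane genes, 8 of 12 late erythroid genes and 5 of 10 erythroid transcription factors and receptor spread at least 4-fold, and 1 of 12 heme synthesis genes did. Of the iron list, 4 of 27 genes spread that far. Over all 14187 genes that reached 10 counts in this group, 15.2% did. Tfr2, a transferrin receptor of erythroid cells and hepatocytes, had 2800, 187 and 549 counts in DNGR-1 KO BM 1, 2 and 3, while the ferritin chain genes Fth1 (39710, 33509 and 39539) and Ftl1 (41604, 39835 and 41939), which were named after their values had been seen, spread less than 2-fold.

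Spleen against BM gave the largest contrasts. Over 9 libraries with genotype as a covariate, the log2 fold change (spleen minus BM, with its SE) was 6.89 (0.90) for Hbb-bs and 6.85 (0.72) for Hba-a1. It was 4.63 (2.81) for Slc4a1, 1.19 (1.77) for Slc40a1, -2.90 (1.87) for Kel and -4.81 (1.81) for Car2. These 4 moved with single libraries, Slc40a1 to 0.26 without DNGR-1 KO spleen 2 and 2.47 without DNGR-1 KO BM 1, and Slc4a1, Kel and Car2 to 0.09, -9.23 and -7.37 without DNGR-1 KO spleen 1. For Klf1, Gata1 and Car1 it was -9.75 (1.37), -10.62 (1.35) and -11.85 (1.60). The last 3 fits rest on spleen libraries at or near 0 and depend on the prior count. A direct measure is that Car1 in the lowest BM library exceeded the highest spleen library 133-fold (95% counting interval 89.4 to 208). The lowest spleen library exceeded the highest BM library 26.7-fold for Hbb-bs and 28.9-fold for Hba-a1.

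Among the 9 genes, as a description, the quasi-likelihood test called 3 lower in spleen (Gata1, Car1 and Klf1), where it called 12.3% of 13468 genes lower, and 2 higher (Hba-a1 and Hbb-bs), where it called 7.28% higher. The tissues did not overlap for 6 of 9 genes, where 26.5% of genes did not overlap. Those that overlapped were Slc4a1, Kel and Slc40a1, the genes with both high and empty spleen libraries. Without DNGR-1 KO spleen 1, 5 of the 9 were called lower, where 2046 of 14079 genes were, and nothing is read from this count. Over all genes 980 were higher and 1651 lower, and with at least 10 counts required in every library 977 were higher and 785 lower.

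**Figure D4:**
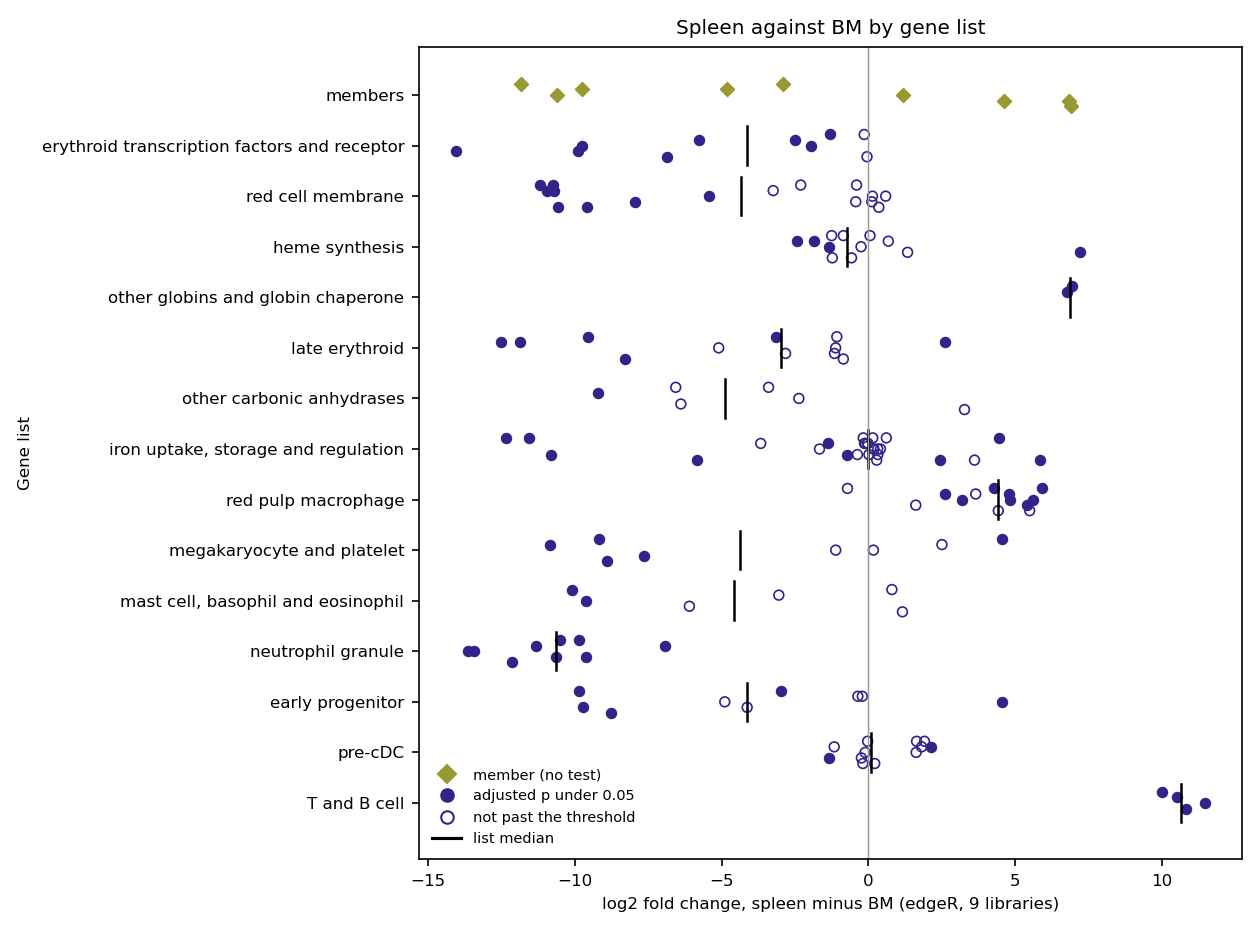
Log2 fold change of spleen against BM for the 9 genes (diamonds, drawn without their test result) and for the genes of each list, where filled points passed an adjusted p of 0.05 and open points did not, and bars are list medians. The 2 other adult globin genes are near 7, and 8 of 10 erythroid transcription factors and receptor genes are filled and below 0.

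Among the other genes of the pathway, more fell than rose in spleen. Over all genes tested, 12.3% were lower and 7.28% were higher. Of 10 genes for erythroid transcription factors and the erythropoietin receptor, 8 fell in spleen and none rose, with a list median of -4.14, or -2.49 with genes at 0 in spleen held at their bound, against -0.18 over all genes tested. Gfi1b had a mean of 132 CPM in BM and 0 counts in spleen, at least an 833-fold difference, with an adjusted p of 0.00153 by edgeR's quasi-likelihood test with Benjamini-Hochberg adjustment, which gave all adjusted p-values here. Tal1, a partner of Gata1 in progenitors, and Gata2, its predecessor there, were at least 49.9-fold and 41.7-fold lower (adjusted p = 0.00813 and 0.0181). Nfe2 fell by 1.95 on the log2 scale (SE 0.34, adjusted p = 0.0046).

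Of 16 red cell membrane genes, 8 fell and none rose (median -4.34, with bounds -3.30). Rhag and Rhd, the Rh-associated glycoprotein and the Rh protein, fell by 11.2 and 10.95 on the log2 scale (adjusted p = 0.000704 and 0.00126), Ermap fell by 10.7 (adjusted p = 0.000618) and the adducin gene Add2 fell by 10.8 (adjusted p = 0.00119). In spleen these 4 had at most 2 counts in any library, so the fitted sizes depend on the prior count. Of 12 late erythroid genes, 5 fell (among them Mfsd2b, Tspo2, Hemgn and Blvrb) and 1 rose, Bpgm, the bisphosphoglycerate mutase of red cells, by 2.62 on the log2 scale (SE 0.33, adjusted p = 0.000964). The list median was -2.99.

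Of 12 heme synthesis genes, 3 fell (among them Alad and Alas1, by 2.42 and 1.33 on the log2 scale, adjusted p = 0.0234 and 0.0124), and 1 rose, Alas2, by 7.22 (SE 1.03, adjusted p = 0.00178). The list median was -0.71. The other adult globin genes rose with Hbb-bs and Hba-a1, Hba-a2 by 6.96 (SE 0.80, adjusted p = 0.000619) and Hbb-bt by 6.78 (SE 0.81, adjusted p = 0.000761). Of the 8 genes of that list in the table, these were the 2 tested. The embryonic globin genes Hbb-y, Hbb-bh1 and Hbb-bh2 had at most 3 counts in any library. Of 6 other carbonic anhydrase genes tested, 1 fell, Car13, which was at least 25.4-fold lower in spleen (adjusted p = 0.00303), and none rose. Car4 and Car10 had at most 3 counts in any library.

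Of 27 iron genes, 3 rose and 6 fell, with a list median of -0.02. Those that rose were Hfe (2.45 on the log2 scale, adjusted p = 0.00647), Slc11a1, an iron transporter of phagosomes (5.83, adjusted p = 0.00951), and Hmox1, the heme oxygenase that frees iron from heme (4.45, adjusted p = 0.0182). Those that fell included Abcg2, a porphyrin and drug exporter, at least 232-fold lower (adjusted p = 0.000381), Tfr2 (fell by 11.6, adjusted p = 0.000723), the ferrireductase gene Steap3 (fell by 5.83, adjusted p = 0.00488), and Lcn2, a siderophore-binding protein of neutrophils, at least 72.8-fold lower (adjusted p = 0.00746). Ftmt, Heph, Hamp, Hamp2, Bmp6 and Steap4 had at most 3 counts in any library.

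Markers of other cells moved with the tissues as well. Of 13 red pulp macrophage genes tested, 8 rose in spleen and none fell (median 4.43). Adgre1 (4.29), C1qb (5.39), C1qa (4.84) and Hpgd (3.20) led by adjusted p, from 0.00138 to 0.00334. Of 9 neutrophil granule genes, 9 fell (median -10.6, with bounds -9.85). Ctsg, Mpo, Elane and Prtn3 had means of 187, 1302, 89.0 and 165 CPM in BM and of at most 1.78 CPM in spleen (adjusted p = 4.53e-05 to 0.00162). Of 8 megakaryocyte genes, 4 fell (among them Itga2b, Pf4 and Gp9) and 1 rose (Clec1b). Of 6 mast cell, basophil and eosinophil genes, 2 fell (Mcpt8 and Cpa3). Of 9 early progenitor genes, 4 fell (Cd34, Mn1, Hoxa9 and Hlf) and 1 rose (Ctla2a). Of 12 pre-cDC genes, Cd74 rose by 2.14 and Irf8 fell by 1.35 (adjusted p = 0.0333 and 0.0202), and without DNGR-1 KO spleen 1 the adjusted p of Cd74 was 0.109. The 4 T cell genes tested rose, with Cd3d higher by 10.002 (SE 0.50, adjusted p = 1.26e-05). The part of these cells in the tissue contrast of the 9 genes was not tested. The lists were counted again without single libraries, which was decided after the data had been seen. Without DNGR-1 KO BM 2, 7 of 10 erythroid factors, 8 of 16 membrane genes and 6 of 12 late erythroid genes were lower, and 7 of 13 red pulp macrophage genes were higher. Without DNGR-1 KO spleen 1 these were 7 of 10, 11 of 16, 8 of 12 and 10 of 13. Over all genes, 1364 of 13258 were lower and 812 higher without DNGR-1 KO BM 2. Without DNGR-1 KO spleen 1, 2046 of 14079 were lower and 1141 higher.

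In spleen the genotypes were compared by the values of 1 WT and 2 DNGR-1 KO libraries, and no test was run. Hbb-bs was 5.98 and 1.82 times its WT level in DNGR-1 KO spleen 1 and 2, and Hba-a1 was 6.01 and 1.96 times. Slc40a1 was at least 428-fold and 790-fold higher than the floor of 3 counts in the WT library. Car2 was 1890 times (95% counting interval 339 to 74670) and 231 times (41.1 to 9140) the WT level, which was a single count, or 630 and 76.9 times that level raised to 3 counts. Slc4a1 was at least 172-fold and 3.32-fold higher, and Kel exceeded that floor at least 45.9-fold, in DNGR-1 KO spleen 1 alone. The intervals cover counting error only, and the bounds hold the WT count at 3 without counting error in the DNGR-1 KO counts. The lower limits of the 95% counting intervals were smaller. They were 347 and 642 for Slc40a1, 139 and 2.36 for Slc4a1, and 36.8 for Kel in DNGR-1 KO spleen 1. Other genes, named after their values had been seen, were also at 0 in 1 spleen library and high in another. In WT spleen and DNGR-1 KO spleen 1 and 2, Ppat had 0, 248 and 2276 counts and Sqor had 622, 0 and 3. In both DNGR-1 KO libraries, 2 of 7 genes (Car2 and Slc40a1) were at least 4-fold above the WT library, where 10.5% of 13425 genes were. With DNGR-1 KO spleen 1 as the sole KO library, 6 of the genes were, and with DNGR-1 KO spleen 2, 3 were. The share of all genes in these single-library settings is not given, and nothing is read from these counts.

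The 2 DNGR-1 KO spleen libraries differed from each other. DNGR-1 KO spleen 1 was higher than DNGR-1 KO spleen 2 by 51.7-fold for Slc4a1 (95% counting interval 30.6 to 95.3), 8.19-fold for Car2 (7.28 to 9.24), 3.28-fold for Hbb-bs (3.26 to 3.30), 3.06-fold for Hba-a1 (3.04 to 3.08), and 193-fold for Kel (34.2 to 7688), or 64.4-fold with the 1 count of spleen 2 raised to 3. Car1 went the other way, 18.1-fold higher in DNGR-1 KO spleen 2 (2.96 to 745, 24 counts against 1), or 6.04-fold with that count raised to 3, and so did Slc40a1, 1.85-fold (1.73 to 1.97). At least 4-fold differences were seen for 4 of 7 genes, where 27.8% of 12968 genes showed them.

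Of the 9 red cell membrane genes that reached 10 counts in DNGR-1 KO spleen, 8 were higher in library 1, with 5 of the 9 at least 4-fold apart. Of 8 late erythroid genes 5 were higher in library 1, with 3 of the 8 at least 4-fold apart. Over all genes 27.8% were that far apart, and the share of all genes higher in library 1 is not given. The summed level of the membrane list was 152 CPM in WT spleen and 288 and 149 CPM in DNGR-1 KO spleen 1 and 2, and that of the late erythroid list was 609, 569 and 315 CPM. Epb42, a protein of the red cell skeleton, had 0 counts in WT spleen and 102 and 0 in DNGR-1 KO spleen 1 and 2. Xk, the partner of Kel on the membrane, had 0, 104 and 0, and Tspan33 had 0, 181 and 1. Gfi1b, Tal1 and Gata2 had 0 counts in all 3 spleen libraries, as Klf1 and Gata1 were near 0 there. Of all listed genes, 11 exceeded 10 CPM in DNGR-1 KO spleen 1 and in no other library of that group, and 6 did so in DNGR-1 KO spleen 2. In DNGR-1 KO BM the same count was 16 for library 1, 1 for library 2 and 2 for library 3.

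Slc40a1 is given beside genes of red pulp macrophages, of which Vcam1, Spic, Cd5l and Axl, like Epb42 and Xk above, were chosen after their values had been seen. Vcam1 had 229 counts in WT spleen and 460 and 5102 in DNGR-1 KO spleen 1 and 2, C1qb had 308, 1139 and 3068, and Spic, the transcription factor of these macrophages, had 20, 457 and 1109. Cd5l had 0, 318 and 844 counts, and Hmox1 of the iron list had 43, 1693 and 4729. All 5 ordered the 3 spleen libraries as Slc40a1 did (0, 1361 and 3329), but 4 of them were above 3 counts in the WT library where Slc40a1 was at 0. Of the 17 red pulp macrophage genes, 14 were higher in DNGR-1 KO spleen 2 than in DNGR-1 KO spleen 1, and 3 were lower. How many of the 17 kept the full order of the 3 libraries was not counted. The summed level of the 17 genes of this list did not follow that order, with 549 CPM in WT spleen and 495 and 823 CPM in DNGR-1 KO spleen, against 35.7 to 81.1 CPM in BM. Timd4 was at 0 in WT spleen and DNGR-1 KO spleen 1. DNGR-1 KO BM 2 and 3, low in Slc40a1 (80 and 183 counts), had 6 and 2 counts of Vcam1. Their C1qb counts were 10 and 13. DNGR-1 KO BM 1, high in Slc40a1 (1126 counts), had 116 counts of Vcam1 and 66 of C1qb. These counts leave out WT BM, where Slc40a1 was at 29.3 to 47.6 CPM. Over all 6 BM libraries Vcam1 had a mean of 1.17 CPM and an SD above that mean. Its level in single WT BM libraries is not given here, so its order is described for DNGR-1 KO BM only. Adgre1, a macrophage marker, had 122, 207 and 35 counts in DNGR-1 KO BM 1, 2 and 3, Axl had 167, 142 and 57, and Hmox1 had 101, 70 and 34. The summed level of the macrophage list was 63.9, 81.1 and 75.4 CPM in these libraries and did not follow Slc40a1. Over the 6 BM libraries with genotype means removed, r with Slc40a1 was 0.973 for C1qb, 0.971 for C1qa, 0.58 for Vcam1, 0.41 for Spic, 0.23 for Cd5l and 0.10 for Hmox1. The part of macrophages in the levels of Slc40a1 was not tested.

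**Figure D5:**
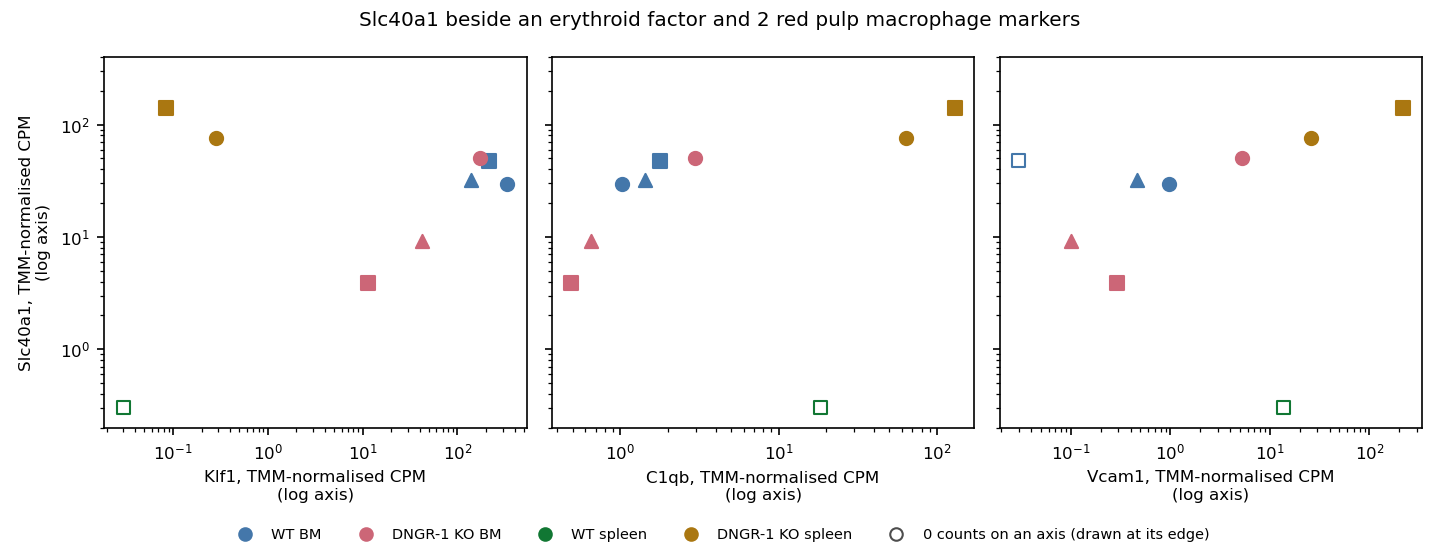
Level of Slc40a1 (vertical) against Klf1, C1qb and Vcam1 (horizontal, 1 panel each) in the 9 libraries, in TMM-normalised CPM on log axes; open symbols have 0 counts on an axis and are drawn at its edge. In BM the low Slc40a1 libraries are those low in Klf1, whereas the DNGR-1 KO spleen libraries have 76.5 and 141 CPM of Slc40a1 with at most 0.281 CPM of Klf1.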

How the data were processed

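The authors deposited gene-level expected counts for the 9 libraries, which their processing notes tie to Trimmomatic 0.36, STAR 2.5.2, RSEM 1.3.0 and GRCm38. The annotation release and strand setting are not given in the sources used here. Symbols and positions came from GENCODE M21 and matched 51633 of 51912 IDs. Expected counts, of which 25.6% of the values above 0 were not whole, were rounded. A deposited variance-stabilised table (DESeq2 1.18.1) was not used.

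Libraries were grouped by their labels. Counts were fitted with edgeR 4.0.16 (R 4.3.3), using TMM scaling, filterByExpr, the quasi-likelihood test and Benjamini-Hochberg adjustment at 0.05. The BM genotype comparison used 6 libraries, and the tissue comparison used 9 with genotype as a covariate. Its filter was first set on the whole design (2710 of 14277 genes called) and then on the tissue groups (2631 of 13468), with both counts seen. DESeq2 1.42.0 and limma-voom 3.58.1, other scalings, other filters, a replicate block and each library left out were alternatives. The fits were tested on simulated data. Genes named from lists were the 4 with the lowest adjusted p in each direction, genes at or under 3 counts in every library or above 10 CPM in 1 library of a group, and the 5 most correlated with Car1, Car2 and Slc40a1, and others are marked in the text. Some list genes are counted but not reported here by name.

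The 9 genes and the lists were chosen with earlier results of these data known. Whether WT and DNGR-1 KO samples of one number share mice is not stated. The study gives a pair of mice per sample and too few mice in total for 9 separate pairs, so some libraries share mice. Which ones is not stated. The fits took libraries as independent, and p-values measure the spread between them. Counting intervals do not cover the reads' lack of molecular identifiers.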

Additional observations from a re-analysis of the deposited data

Results flagged for a closer look

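Car2 differed between the genotypes in opposite directions in the 2 tissues. The difference of the mean log2 CPM (DNGR-1 KO minus WT) was -2.17 in BM, over 3 libraries a genotype, and 7.78 in spleen, over 2 DNGR-1 KO libraries and 1 WT library with its single count raised to 3. The genotypes overlapped in BM, with DNGR-1 KO BM 1 within the WT range, and the difference between the tissues was not tested.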

How the results depend on the processing

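The number of genes called between genotypes in BM was 4, and it was 11 with DESeq2, 10 without a filter on low counts and 2 to 15 with a library left out. The 15 came without DNGR-1 KO BM 1, and 2 came without WT BM 2, WT BM 3, DNGR-1 KO BM 2 or DNGR-1 KO BM 3. The other settings gave 3 to 5. Without DNGR-1 KO BM 2 and 3, which was chosen after seeing the data, 3 were called. Between tissues 2631 genes were called, with 1848 to 3187 when a library was left out, 3946 with DESeq2 and 1762 with at least 10 counts required in every library. The replicate block gave 1246 between tissues and 4 between genotypes. The cause was not tested. Same-numbered WT and DNGR-1 KO BM libraries had deviations correlated at 0.103, 0.0989 and -0.0815, so the numbers were not taken to pair the samples. Under the block 4 of 10 erythroid factors (8 without it), 7 of 16 membrane genes (8) and 3 of 12 late erythroid genes (5) were lower in spleen, 5 of 13 red pulp macrophage genes (8) were higher, 1 iron gene was higher and 4 lower (3 and 6), and 0 pre-cDC genes were called (2, Cd74 and Irf8, with adjusted p of 0.077 and 0.0851).

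Of the 8 genes that reached 10 counts in WT BM, 2 spread at least 4-fold there, where 13.5% of all genes did. With a fold of 2 it was 6, with a fold of 8 it was 1, and with a library left out 0 to 2. The median spread over all genes in WT BM was 1.78-fold. In DNGR-1 KO BM 7 of 9 passed 4-fold (15.2% of all genes), and 3 to 7 with a library left out. In DNGR-1 KO spleen the count was 4 of 7 (27.8% of all genes), and 3 to 6 over 6 settings. In spleen 2 of 7 genes were at least 4-fold above WT in both DNGR-1 KO libraries (10.5% of all genes). With 1 DNGR-1 KO library left out it was 3 to 6. Shares of all genes under the other settings are not given, and nothing is read from these counts.

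No fitted fold change of a gene passed the threshold in the opposite direction. In BM 0 of the 8 genes fitted passed in the main fit, so there was no call to reverse. In BM the sign of Slc40a1 and of Kel differed in 1 of 15 settings each (ranges -2.47 to 0.47 and -2.78 to 0.34), and the range was 0.35 to 2.05 for Hbb-bs and 0.09 to 1.59 for Hba-a1. Between tissues the log2 fold change ranged from 6.197 to 7.62 for Hbb-bs, from 6.12 to 7.33 for Hba-a1, from 0.26 to 2.47 for Slc40a1, from -7.37 to -3.65 for Car2, from -9.23 to -1.51 for Kel and from 0.09 to 5.81 for Slc4a1, whose lowest value came without DNGR-1 KO spleen 1. At these depths a gene at 0 could not be told from one at 3 counts.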
